A study of Mus musculus with 18 samples.

Results

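Abundant noncoding RNAs and the most counted feature of an RNA-seq table were followed across mouse N2A cells depleted of *Fmr1* or *Zfp598*. They are 7 genes: ENSMUSG00000118642, the small RNAs *Rn7sk*, *Rmrp* and *Rpph1*, the long noncoding RNAs *Malat1* and *Neat1*, and the protein-coding gene *Lars2*. ENSMUSG00000118642 was chosen by its counts, as the most counted of the 55414 features in the table, and the other 6 were chosen by their symbols, which matched 7 identifiers because *Rmrp* has 2. N2A (Neuro-2a) is a mouse neuroblastoma line. The cells were harvested 72 h after transfection with 1 of 6 siRNAs, 2 each for a non-targeting control (Scramble KD), for *Fmr1* (*Fmr1* KD) and for *Zfp598* (*Zfp598* KD), and each siRNA was used in triplicate, which gave 18 libraries from RNA depleted of rRNA. The letters A and B name the siRNAs, and their libraries are A1 to A3 and B1 to B3. All cells were of the same line, no library lacked a transfected siRNA, and nothing states how far each transfection was handled separately, so p-values measure the spread between these libraries. Each KD siRNA was set against the Scramble siRNA that has its letter, although a shared letter is only a name.

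The small members are catalytic or regulatory RNAs of the nucleus. 7SK RNA (*Rn7sk*) holds the elongation factor P-TEFb in an inactive particle through HEXIM proteins. *Rpph1* and *Rmrp* are the RNA components of RNase P, which matures the 5′ ends of tRNAs, and of RNase MRP, which cuts precursor rRNA, and these enzymes share most of their proteins. RNA polymerase III makes all 3 of these RNAs, and they carry no poly(A) tail, so they enter a library only when it is made from total RNA. *Malat1* lies in nuclear speckles, where splicing factors gather, and *Neat1* is the scaffold of paraspeckles. *Lars2* encodes the mitochondrial leucyl-tRNA synthetase.

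Total counts per library ranged from 7674724 to 15414590. *Zfp598* KD A3 (7674724) and A2 (10856132) were the shallowest. The same libraries had a count in the fewest features, 22161 and 24189 against 24939 to 30124 in the other 16. Both stood apart from the rest in several members, so results that rest on them are given with and without them. Without them, *Zfp598* siRNA A is the single library A1, which is assumed to vary as the other groups do, so a siRNA A comparison then sets 1 library against 3. The targeted mRNAs were depleted, with *Fmr1* at 60.2 ± 6.51 CPM (counts scaled to the TMM-adjusted library size; SD, n = 6) in Scramble KD and 22.4 ± 5.13 CPM (SD, n = 6) in *Fmr1* KD. *Zfp598* fell from 118 ± 9.49 CPM (SD, n = 6) in the controls to 41.1 ± 5.40 CPM (SD, n = 6) with its own siRNAs. Of 12 neural markers, 11 had at least 98 counts in every library (the lowest being *Gata3*), whereas *Dcx* had 0 to 27. Of the 11 tested, 7 were lower with *Fmr1* siRNA A (23.6% of all genes passed) and 6 higher with *Fmr1* siRNA B (22.7%). With *Zfp598* siRNA B (26.8%) 6 were higher and 1 lower, and with *Zfp598* siRNA A (11.9%) 1 was higher and 3 lower. The controls differed as well, since 6 were lower and 0 higher with Scramble siRNA B than with Scramble siRNA A (22.7% of all genes differed). The part of this in the members' values was not tested. Markers of pluripotent cells were highest in *Fmr1* KD B1, with 34 counts for *Pou5f1*, 110 for *Nanog*, 102 for *Zfp42* and 52 for *Dppa5a*. *Pou5f1* was at 0 in 15 libraries, *Zfp42* and *Dppa5a* in 16 each and *Nanog* in 1. The same library had a count in the most features, 30124. The part of this in the values of *Fmr1* siRNA B was not tested.

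ENSMUSG00000118642 took more counts than any other feature in every condition, and its share was uneven. In Scramble KD its share of the total counts was 11.1%, 5.00% and 8.83% with siRNA A and 5.56%, 5.56% and 5.68% with siRNA B. In *Fmr1* KD it was 6.45%, 5.40% and 7.93% with siRNA A and 6.06%, 5.98% and 6.06% with siRNA B. In *Zfp598* KD it was 5.67%, 15.2% and 25.8% with siRNA A and 5.40%, 6.03% and 7.92% with siRNA B. *Zfp598* KD A3 and A2 were thus the highest of the 18 libraries, while A1, transfected with the same siRNA, lay within the range of Scramble KD. With counts this high, counting error was small (1978567 counts in *Zfp598* KD A3, 95% Wilson interval of the share 25.7% to 25.8%), but reads without molecular identifiers are not independent molecules, and all such intervals cover counting error only.

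**Figure D1:**
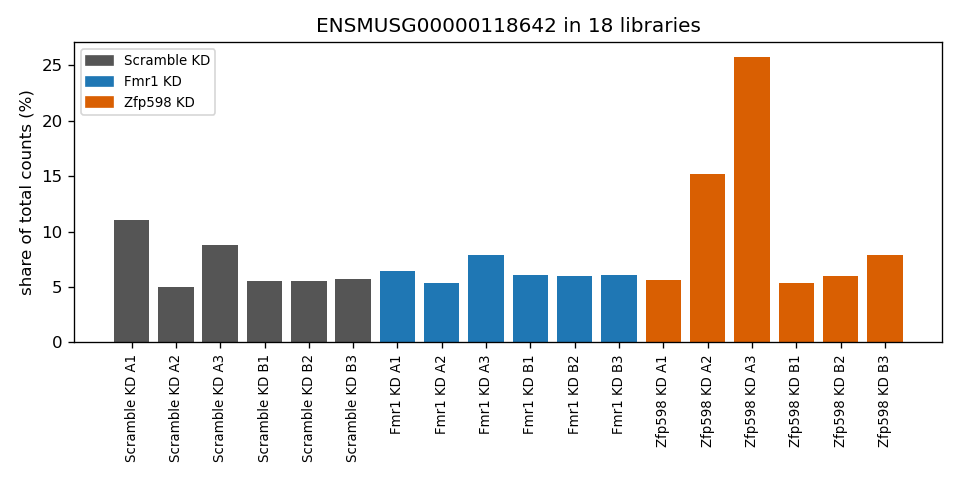
Bars give the share of total counts (%) on ENSMUSG00000118642 in each of the 18 libraries, coloured by condition. Most bars stand between 5% and 8%, and those of *Zfp598* KD A2 (15.2%) and A3 (25.8%) stand above all others.

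The margin by which the feature was chosen was wide. Its mean share over the libraries was 8.09%, and the features ranked next were *Malat1* (0.878%), the translation elongation factors *Eef1a1* (0.701%) and *Eef2* (0.663%), the mitochondrial *mt-Co1* (0.370%), *Actb* (0.300%), *Hsp90ab1* (0.277%), *Rps2* (0.272%), *Scd2* (0.261%) and *mt-Nd5* (0.252%). The identifier has no entry in GENCODE M39, the annotation used here for names and positions on GRCm39, so no name, place or sequence is given for it. In all, 665 features lack an entry, and the others among them held at most 0.104% of any library together.

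By condition, the median share was 5.62% for Scramble KD, 6.06% for *Fmr1* KD and 6.97% for *Zfp598* KD. The SD over 6 libraries was 2.44, 0.861 and 8.12 percentage points, and the ranges overlapped. The fitted log2 fold change was -0.24 for *Fmr1* KD and 0.86 for *Zfp598* KD. No test was made of these values because the feature was chosen by its counts. Without *Zfp598* KD A2 and A3 the second value became -0.21. With siRNA A alone it was 1.18 and became -0.61 without those libraries.

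The rest of the 2 libraries also looked different. The counts on nuclear protein-coding genes shifted toward short genes: genes with under 2000 exon bases held 4.19% of them in *Zfp598* KD A3 and 3.95% in A2, against 2.56% to 3.43% in the other 16 libraries. Genes with over 8000 exon bases held 42.8% and 43.4%, against 45.6% to 49.4%. This ordering went beyond *Zfp598* KD, since the 5 libraries with the highest share of ENSMUSG00000118642 (*Zfp598* KD A3 and A2, Scramble KD A1 and A3, and *Fmr1* KD A3) were also the 5 with the lowest share of long genes. Protein-coding genes held 70.7% and 80.9% of all counts in *Zfp598* KD A3 and A2 and 84.8% to 90.5% elsewhere, but once ENSMUSG00000118642 was taken out of the total these shares were 95.3% and 95.4%, within the 94.7% to 95.8% of the others. The part of RNA quality, input or library size in these values was not tested.

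**Figure D2:**
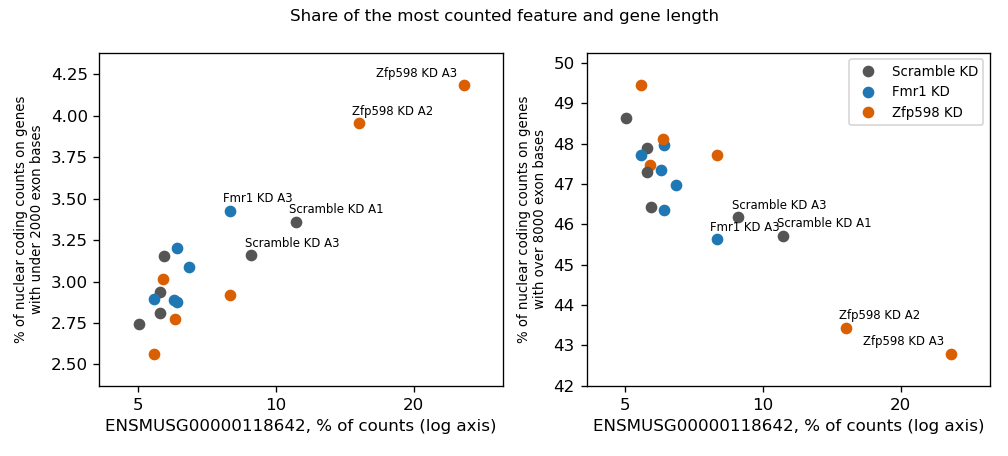
Each point is a library, with the share of counts on ENSMUSG00000118642 on the horizontal log axis and, on the vertical axes, the percentage of counts on nuclear protein-coding genes that fell on genes with under 2000 exon bases (left) or over 8000 (right). *Zfp598* KD A3 and A2 lie at the end of both, at 4.19% and 3.95% on the left and 42.8% and 43.4% on the right.

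The genes whose levels most resembled the feature followed that order as well. Likeness was Pearson's r over the 18 libraries of log2 CPM, with the CPM taken over the total without ENSMUSG00000118642, among 12109 other features with a mean of at least 50 counts. It is a description across libraries that share depth and processing. The highest values belonged to *Arln* (0.967), *Arf5* (0.967), a small GTPase of the Golgi, *Dhrs13* (0.966), *2510039O18Rik* (0.961) and *Pex6* (0.959), a peroxisome biogenesis ATPase. *Arln* was at 94.6 and 63.2 CPM in *Zfp598* KD A3 and A2 and at 24.4 to 52.3 CPM in the other libraries. The lowest values belonged to *Gm15128* (-0.977), *Wdpcp* (-0.976), a ciliogenesis factor, *Capza2* (-0.976), which caps actin filaments, *Wasl* (-0.969), an activator of actin branching, and *Arglu1* (-0.963). *Gm15128* was at 2.28 and 4.45 CPM in *Zfp598* KD A3 and A2 and at 6.39 to 15.7 CPM elsewhere. The 200 protein-coding genes most like the feature had a median exon length of 4319.5 bases, the 200 least like it 8164 bases, and all protein-coding genes in the search 6650 bases.

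*Rn7sk* was the 16th most counted feature and the most abundant of the named noncoding members per length, with a mean level of 5513 TMM-normalized CPM per kb, against 1114 for *Malat1*, 60.0 for *Neat1* and 3.90 for *Lars2*. It is encoded on the minus strand of chromosome 9 of GRCm39 as a single exon of 331 bases, chr9:78082585-78082915, and no exon of another gene overlaps it. The genome holds many copies of 7SK RNA. Among the counted features, 115 small RNAs aligned to at least 100 bases of it, of which 54 had 0 counts in every library, and all 115 together had 7505 counts, or 1.80% of the 415840 counts of *Rn7sk*. The closest, *Gm54754*, is identical to bases 1 to 241 and had 246 counts. The last 300 bases of *Rn7sk* are shown because they mark where a read could be assigned to *Rn7sk* and not to that copy, with the 210 shared bases in capitals and the 90 others in lower case (GENCODE M39, GRCm39, chr9:78082585-78082884, minus strand).
Rn7sk bases 32 to 331: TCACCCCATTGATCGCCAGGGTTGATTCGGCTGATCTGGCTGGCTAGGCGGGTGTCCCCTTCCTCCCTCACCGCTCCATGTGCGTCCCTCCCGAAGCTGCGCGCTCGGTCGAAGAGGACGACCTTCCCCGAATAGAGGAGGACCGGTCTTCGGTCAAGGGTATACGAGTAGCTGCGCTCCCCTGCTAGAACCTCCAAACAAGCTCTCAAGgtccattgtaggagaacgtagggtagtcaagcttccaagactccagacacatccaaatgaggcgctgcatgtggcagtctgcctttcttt

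*Rn7sk* did not differ detectably between either KD and Scramble KD, and differed instead between the siRNAs of a condition. Scramble KD had 28279, 34191 and 33592 counts with siRNA A and 15091, 17480 and 25937 with siRNA B. *Fmr1* KD had 26731, 22621 and 46184 with siRNA A and 19849, 16369 and 27261 with siRNA B. *Zfp598* KD had 18707, 21771 and 20335 with siRNA A and 12480, 13767 and 15195 with siRNA B. As shares of the total, every Scramble KD library of siRNA A (0.231% to 0.233%) lay above every one of siRNA B (0.102% to 0.168%). The same held in *Zfp598* KD (0.140% to 0.265% against 0.0996% to 0.132%), whereas in *Fmr1* KD the siRNAs overlapped (0.163% to 0.350% against 0.122% to 0.195%). The fitted log2 fold change between siRNA B and siRNA A was -0.86 (SE 0.29, adjusted p = 0.0361) in Scramble KD, -0.63 (SE 0.29, adjusted p = 0.119) in *Fmr1* KD and -1.14 (SE 0.29, adjusted p = 0.00463) in *Zfp598* KD, all by the quasi-likelihood test of edgeR with p adjusted over 17901 genes (Benjamini-Hochberg), as in every edgeR value that follows. In bulk libraries, fewer cells with an RNA and less RNA per cell cannot be told apart. Without *Zfp598* KD A2 and A3 the last of these, then 3 libraries against A1 alone, was -0.32 (adjusted p = 0.526 from the same test) and that in *Fmr1* KD passed (adjusted p = 0.0323). The Scramble KD difference did not pass when Scramble KD A1, A3, B1 or B2 was left out (adjusted p = 0.0800 to 0.155, edgeR).

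With both siRNAs pooled, the log2 fold change of *Rn7sk* was 0.01 (SE 0.31, adjusted p = 0.994, edgeR) in *Fmr1* KD and -0.05 (SE 0.31, adjusted p = 0.951, edgeR) in *Zfp598* KD. These standard errors leave room for changes well beyond the values themselves. Its share of the counts also followed that of ENSMUSG00000118642 in part, with r = 0.53 and rho = 0.58 over the 18 libraries, and within conditions (n = 6 each) r was 0.53 for Scramble KD, 0.84 for *Fmr1* KD and 0.96 for *Zfp598* KD. Without *Zfp598* KD A2 and A3, r over the rest was 0.51. The r of 0.96 includes those libraries, the highest of the 18 in ENSMUSG00000118642, and no value without them is given. Among 12109 features, however, *Rn7sk* ranked 1073rd in likeness to ENSMUSG00000118642 (r = 0.64). The features most like *Rn7sk* itself were *Mrpl52* (0.939), a protein of the mitochondrial ribosome, *Trappc1* (0.935), a subunit of a vesicle-tethering complex, and *Ndufa2* (0.934), a subunit of respiratory complex I.

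Small structural RNAs other than *Rn7sk* were seldom counted. Of 18 symbols in a list of small structural RNAs that includes *Rn7sk*, 7 identifiers had enough counts to be tested, *Rn7sk* among them. The remainder included *Terc*, *Snora73a*, *Snora73b* and *Rnu11*, which were at 0. Of the 7, 0 passed in either KD in edgeR (0 with *Fmr1* KD and 3 with *Zfp598* KD at an unadjusted p under 0.05, and 0 in DESeq2). Their median log2 fold change was -0.03 and -0.67, against 0.0025 and 0.012 over all genes. Between siRNA B and siRNA A, *Rny3*, a Ro-associated Y RNA, was lower in Scramble KD (log2 fold change -1.23, adjusted p = 0.0445, edgeR) and in *Fmr1* KD (-1.31, adjusted p = 0.0332, edgeR). *Rn7sk* included, 2 of the 7 differed between the Scramble siRNAs, beside 22.7% of all genes. For the *Fmr1* siRNAs it was 1 of the 7, beside 24.3%. In *Zfp598* KD the U12 snRNA *Rnu12* (-1.38, adjusted p = 0.00914, edgeR) and the Cajal body RNA *Scarna2* (-1.55, adjusted p = 0.000813, edgeR) were lower with siRNA B. With *Rn7sk* they made 3 of the 7, beside 35.3% of all genes. Without *Zfp598* KD A2 and A3, which leaves A1 alone for siRNA A, the values between the *Zfp598* siRNAs were -0.92 for *Rnu12* and -0.41 for *Scarna2*. In that fit 4 of the 8 then tested, *Rn7sk*, *Rny3*, *Rnu12* and *Scarna2*, were lower with Scramble siRNA B than with siRNA A. More genes of the whole table differed between the Scramble siRNAs there than the 4056 of the fit with all 18 libraries. The number of genes tested there is not given, so the 4 of 8 cannot be set beside a share.

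The proteins of the 7SK particle and of P-TEFb were measured throughout. Of 7 genes, 1 passed in *Fmr1* KD (6.54% of all genes did) and 1 in *Zfp598* KD (1.96% of all genes), both higher: *Hexim1*, which inhibits P-TEFb (0.39 on the log2 scale, adjusted p = 0.0420, edgeR), in *Fmr1* KD, and the cyclin *Ccnt1* (0.37, adjusted p = 0.0197, edgeR) in *Zfp598* KD. With *Zfp598* siRNA B, where 26.8% of all genes passed, *Hexim1* (0.57, adjusted p = 0.000848, edgeR) and *Ccnt1* (0.49, adjusted p = 1.87e-05, edgeR) were higher and *Larp7*, which binds the 3′ end of 7SK RNA, was lower (-0.74, adjusted p = 0.000489, edgeR). Of 20 genes for RNA polymerase III and its factors, 0 passed in *Fmr1* KD (3 at an unadjusted p under 0.05, 2 in DESeq2) and 1 in *Zfp598* KD, the subunit gene *Polr3k* (0.49, adjusted p = 0.0323, edgeR).

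*Rmrp* and *Rpph1* were close to absent from the table, although they are abundant RNAs in growing cells. *Rmrp* has 2 identifiers on the minus strand of chromosome 4, a lncRNA entry of 281 bases at chr4:43492783-43493063 and a ribozyme entry of 271 bases at chr4:43492788-43493058 that lies wholly inside the first. The ribozyme entry had 0 counts in all 18 libraries, and the lncRNA entry had 1 count in *Zfp598* KD A3 and 0 in the other 17. A count of 0 allows up to 3 counts, which is 1.95e-05% of all counts in the deepest library (Scramble KD B3) and 3.91e-05% in the shallowest (*Zfp598* KD A3). Of the lncRNA entry, 124 bases also lie in an exon of *Ccdc107* on the other strand, and *Ccdc107* had 47 to 131 counts. The 157 bases outside that exon fall in 2 stretches, shown because reads there meet no exon but those of *Rmrp*. Capitals mark the 10 bases that belong to the longer entry alone (GENCODE M39, GRCm39, minus strand).
Rmrp bases 1 to 40, chr4:43493024-43493063: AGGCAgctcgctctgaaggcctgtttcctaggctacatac
Rmrp bases 165 to 281, chr4:43492783-43492899: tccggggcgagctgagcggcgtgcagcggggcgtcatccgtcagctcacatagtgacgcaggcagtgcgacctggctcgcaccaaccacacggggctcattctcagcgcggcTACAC

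*Rpph1* lies on the minus strand of chromosome 14 as a single exon of 319 bases, chr14:51044906-51045224. Scramble KD had 2, 3 and 4 counts with siRNA A and 0, 0 and 1 with siRNA B. *Fmr1* KD had 3, 3 and 5 with siRNA A and 2, 0 and 1 with siRNA B, and *Zfp598* KD had 0, 1 and 3 and then 2, 2 and 0. No library exceeded 5 counts, which is too few for a comparison between groups. Exons of *Parp2* or *Ccnb1ip1* cover 277 of its bases, 86.8% of the gene. The remaining 42 bases are shown as the part of *Rpph1* where no other exon competes for a read (GENCODE M39, GRCm39, minus strand, no base marked).
Rpph1 bases 278 to 319, chr14:51044906-51044947: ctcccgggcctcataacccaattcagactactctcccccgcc

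Features at 0 were common with and without overlap, and most frequent among those almost wholly inside other exons. Of 1800 features with at least 95% of their exon bases inside exons of other counted genes, 1320 (73.3%) had 0 counts in every library, against 14960 of 39062 (38.3%) without overlap. Among small structural types, 340 of 407 (83.5%) were at 0 with that much overlap and 1591 of 3017 (52.7%) without. The *Rmrp* entries fall in that class. With 80% to under 95% overlap, where *Rpph1* falls, 98 of 335 features (29.3%) were at 0, and 9 of 24 (37.5%) of the small types, fewer than without overlap. Among small features inside other members, *Gm55521* and *Gm37376* within *Malat1* and *Gm55523*, *Gm55524* and *Gm55525* within *Neat1* had 0 counts in all 18 libraries. The strand setting and the treatment of reads on overlapping exons are not given in the sources used here, and how far they set the counts of *Rmrp* and *Rpph1* was not tested.

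Although the RNA components were not measurable, the proteins of RNase P and RNase MRP were. Of 11 genes, 2 were higher in *Fmr1* KD, where 6.54% of all genes passed, *Pop1* (log2 fold change 0.48, adjusted p = 0.0252, edgeR), the largest protein that both enzymes share, and *Rpp25* (0.68, adjusted p = 0.0435, edgeR). In *Zfp598* KD 0 of 11 passed in edgeR (1 at an unadjusted p under 0.05, 1 in DESeq2). With single siRNAs, where 11.9% to 26.8% of all genes passed, *Pop1* was higher with *Fmr1* siRNA A (0.47, adjusted p = 0.0106, edgeR), with *Fmr1* siRNA B (0.49, adjusted p = 0.00907, edgeR) and with *Zfp598* siRNA B (0.64, adjusted p = 0.00101, edgeR). *Rpp25* rose with *Zfp598* siRNA B (0.87, adjusted p = 0.000241, edgeR) and fell with *Zfp598* siRNA A (-0.57, adjusted p = 0.0228, edgeR), and it also differed between the Scramble siRNAs (-0.83 for B against A, adjusted p = 0.000459, edgeR).

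*Malat1* was lower with siRNA B of either KD than with Scramble siRNA B. It is a single gene of 7886 exon bases on the minus strand of chromosome 19, chr19:5845717-5853602, and was the second most counted feature. Its level in Scramble KD was 10586, 10536 and 10106 TMM-normalized CPM with siRNA A and 10181, 9955 and 9466 with siRNA B. In *Fmr1* KD it was 9522, 8982 and 9216 with siRNA A and 7163, 7488 and 8124 with siRNA B. In *Zfp598* KD it was 9823, 9084 and 8054 with siRNA A and 6818, 6072 and 7014 with siRNA B. The libraries of siRNA B of either KD therefore all lay below all 6 Scramble KD libraries. Those of siRNA A of either KD ran from 8054 to 9823 CPM. They lay below every library of Scramble siRNA A (10106 to 10586 CPM) and overlapped those of Scramble siRNA B (9466 to 10181 CPM).

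**Figure D3:**
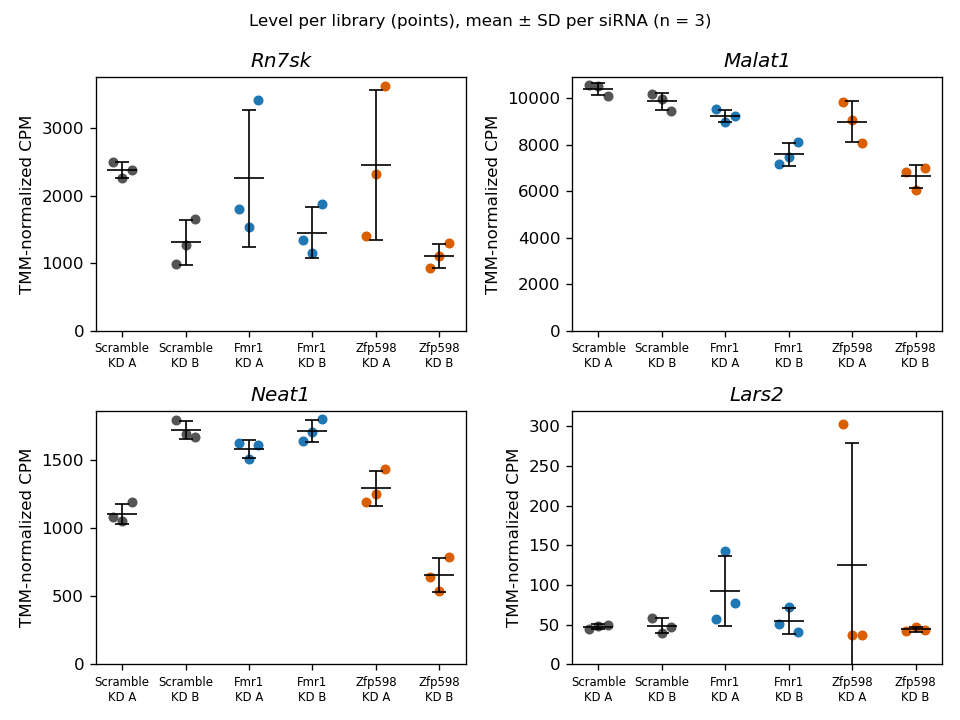
Points are the TMM-normalized CPM of *Rn7sk*, *Malat1*, *Neat1* and *Lars2* in each library, and horizontal marks with bars are the mean ± SD of the 3 libraries of a siRNA (the lower bar of *Lars2* in *Zfp598* KD A runs below 0, where the axis ends). *Neat1* is lowest with *Zfp598* siRNA B (542 to 785 CPM), and the high *Lars2* points are *Zfp598* KD A1 (303 CPM) and *Fmr1* KD A2 (143 CPM).

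Of the 4 members with enough counts and a test, 1 passed with *Fmr1* siRNA B, *Malat1* (log2 fold change -0.38, SE 0.09, adjusted p = 0.00418, edgeR), where 22.7% of all tested genes passed. With *Zfp598* siRNA B, where 26.8% of all genes passed, *Malat1* was again lower (-0.57, SE 0.09, adjusted p = 8.56e-05, edgeR) and was 1 of 2 members that passed. With siRNA A it did not pass, at -0.17 (adjusted p = 0.185, edgeR) in *Fmr1* KD and -0.21 (adjusted p = 0.134, edgeR) in *Zfp598* KD. Without *Zfp598* KD A1 the latter passed (-0.29, adjusted p = 0.0236, edgeR). The difference between the 2 *Zfp598* siRNA effects was -0.36 (adjusted p = 0.0475, edgeR), but it did not pass when any single library other than *Zfp598* KD A3 or B3 was left out (adjusted p = 0.0568 to 0.157) or with library totals in place of TMM (-0.16, adjusted p = 0.587). That between the *Fmr1* siRNA effects was -0.21 (adjusted p = 0.281, edgeR). With library totals *Malat1* also no longer passed with *Fmr1* siRNA B (-0.30, adjusted p = 0.112, edgeR).

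Pooled over siRNAs, 0 of the 4 members passed in *Fmr1* KD, where 6.54% of all genes passed (1 at an unadjusted p under 0.05, 0 in DESeq2), and 0 in *Zfp598* KD, where 1.96% of all genes passed (2 at an unadjusted p under 0.05, 1 in DESeq2). *Malat1* came to -0.27 (SE 0.12, adjusted p = 0.180, edgeR) and -0.38 (SE 0.12, adjusted p = 0.0905, edgeR). The second value passed without *Zfp598* KD A2 and A3 (-0.44, adjusted p = 0.0325, edgeR), without *Zfp598* KD A1 (-0.45, adjusted p = 0.0269), and with the siRNA letter as a term (-0.39, adjusted p = 0.0173). As a share of all counts, a total that also holds ENSMUSG00000118642, *Malat1* had a lowest, median and highest value of 0.961%, 0.994% and 1.08% in Scramble KD, 0.790%, 0.894% and 1.01% in *Fmr1* KD and 0.590%, 0.722% and 0.978% in *Zfp598* KD. Two-sided exact permutation tests of the log2 shares, 6 against 6, gave p = 0.0173 and p = 0.00433 (the smallest possible is 0.00216), and the groups overlapped in both. With ENSMUSG00000118642 taken out of the total, the share of *Malat1* was 0.925% in *Zfp598* KD A2 and 0.795% in A3, in place of 0.785% and 0.590%, and the same exact permutation tests again gave a p under 0.05 in both comparisons. The features most like *Malat1* across the libraries were *Fnip1* (0.925), *Tmem30a* (0.924) and *Clasp2* (0.918).

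*Neat1* was lower with 1 *Zfp598* siRNA and higher with 1 *Fmr1* siRNA. The gene spans chr19:5874736-5897132 on the minus strand of chromosome 19, near *Malat1*, with 22397 exon bases. Its level in Scramble KD was 1078, 1050 and 1188 TMM-normalized CPM with siRNA A and 1795, 1692 and 1669 with siRNA B. In *Fmr1* KD it was 1621, 1506 and 1610 with siRNA A and 1638, 1701 and 1797 with siRNA B. In *Zfp598* KD it was 1189, 1247 and 1436 with siRNA A and 641, 542 and 785 with siRNA B. The libraries of *Zfp598* siRNA B were thus below all others, and the controls themselves split by siRNA, with those of Scramble siRNA A all below those of Scramble siRNA B.

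Against Scramble siRNA B, *Neat1* fell with *Zfp598* siRNA B (-1.39, SE 0.11, adjusted p = 2.99e-08, edgeR), a level of 0.382 times the control. Against Scramble siRNA A it rose with *Fmr1* siRNA A (0.51, SE 0.11, adjusted p = 0.00132, edgeR), the 1 member that passed there, where 23.6% of all genes passed. It did not pass with *Fmr1* siRNA B (-0.01, adjusted p = 0.978, edgeR) or with *Zfp598* siRNA A (0.22, adjusted p = 0.188, edgeR). In the latter comparison 11.9% of all genes passed and 0 of the 4 members (3 at an unadjusted p under 0.05, 0 in DESeq2). The siRNA effects themselves differed, by -1.61 (adjusted p = 4.06e-07, edgeR) between the *Zfp598* siRNAs and by -0.52 (adjusted p = 0.0167, edgeR) between the *Fmr1* siRNAs. Without Scramble KD B1 the latter was -0.48 (adjusted p = 0.0509).

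These contrasts lean on controls that differed from each other. *Neat1* was higher with Scramble siRNA B than with Scramble siRNA A (0.64, SE 0.11, adjusted p = 0.0002, edgeR), one of 2 members that differed there beside *Rn7sk*, where 22.7% of all genes differed. It was lower with *Zfp598* siRNA B than with *Zfp598* siRNA A (-0.98, SE 0.11, adjusted p = 1.71e-06, edgeR). Between the *Zfp598* siRNAs all 4 members differed, each lower with siRNA B, where 35.3% of all genes differed. *Malat1* was at -0.44 (adjusted p = 0.00091, edgeR). Between the *Fmr1* siRNAs 1 of 4 differed, where 24.3% of all genes did: *Malat1* at -0.28 (adjusted p = 0.0254, edgeR), a call lost without *Fmr1* KD A1, A3, B1 or B2 (adjusted p = 0.0604 to 0.107). *Neat1* was at 0.12 there (adjusted p = 0.482, edgeR).

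**Figure D4:**
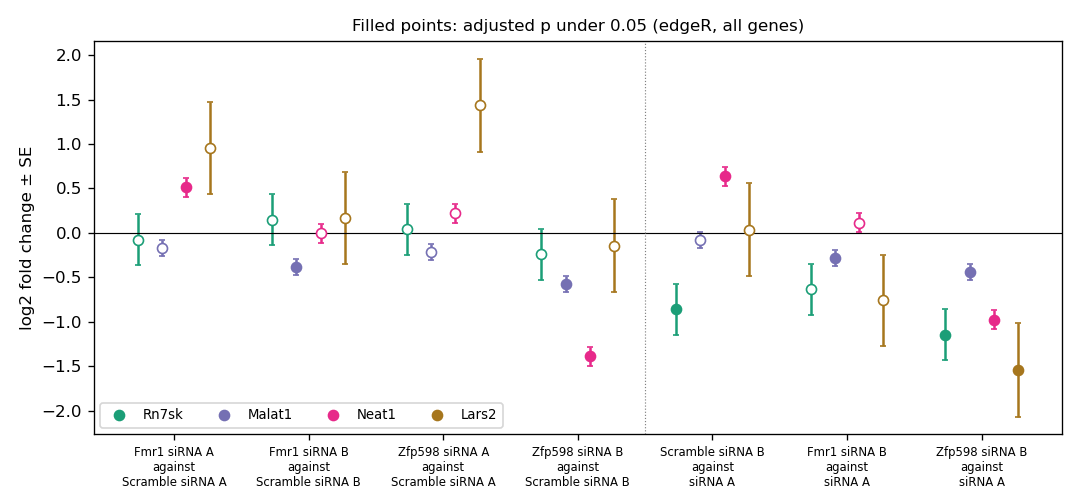
Points are fitted log2 fold changes with their SE for the 4 tested members, each KD siRNA against the Scramble siRNA of its letter (left of the dotted line) and siRNA B against siRNA A within a condition (right), and filled points have an adjusted p under 0.05 in edgeR. *Neat1* runs from -1.39 with *Zfp598* siRNA B to 0.64 between the Scramble siRNAs, and *Lars2* has the longest error bars.

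Pooling the siRNAs left *Neat1* at 0.22 (SE 0.20, adjusted p = 0.566, edgeR) in *Fmr1* KD and -0.54 (SE 0.20, adjusted p = 0.154, edgeR) in *Zfp598* KD. The latter was -0.83 (adjusted p = 0.0140, edgeR) without *Zfp598* KD A2 and A3. Its share of all counts had a lowest, median and highest value of 0.101%, 0.142% and 0.184% in Scramble KD, 0.159%, 0.176% and 0.187% in *Fmr1* KD and 0.0558%, 0.0925% and 0.118% in *Zfp598* KD, and the groups overlapped. The exact permutation test gave p = 0.0996 for *Fmr1* KD and p = 0.0303 for *Zfp598* KD, and without 1 library the former was p = 0.0346 (Scramble KD B1 left out) and the latter p = 0.0606, without Scramble KD B1, B2 or B3 or *Zfp598* KD B1, B2 or B3. Most like *Neat1* across the libraries were *Parvg* (r = 0.95), an adaptor of integrin-linked kinase, *Lix1l* (0.909) and the lncRNA *9330188P03Rik* (0.893).

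Some protein partners of both long RNAs passed with *Zfp598* siRNA B, where 26.8% of all genes did. Of 10 paraspeckle proteins, 3 were higher there, among them *Sfpq* (0.50, adjusted p = 0.000134, edgeR) and *Pspc1* (0.52, adjusted p = 0.0033, edgeR), and 1 was lower, *Dazap1* (-0.69, adjusted p = 0.000162, edgeR). *Sfpq* and *Dazap1* differed between the Scramble siRNAs too, at -0.51 (adjusted p = 0.000141, edgeR) and 0.59 (adjusted p = 0.000856, edgeR). Of 10 nuclear speckle and SR proteins, 6 were higher with *Zfp598* siRNA B and 2 lower, with *Srsf3* (0.99, adjusted p = 6.75e-07, edgeR) and *Srsf1* (0.83, adjusted p = 1.03e-07, edgeR) furthest up and *Srrm1* (-0.62, adjusted p = 7.84e-05, edgeR) furthest down. Between the Scramble siRNAs, 2 of these 10 were higher with siRNA B and 2 lower. With *Zfp598* siRNA A, 0 of 10 passed in each list (2 and 2 at an unadjusted p under 0.05, 1 and 0 in DESeq2). Pooled, the calls were *Smarca4* (0.46, adjusted p = 0.00135, edgeR) and *Srrm1* (-0.39, adjusted p = 0.0432, edgeR) in *Fmr1* KD, and none in *Zfp598* KD, where 0 of 10 passed in each list in edgeR (2 and 6 at an unadjusted p under 0.05, 1 and 2 in DESeq2).

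Of 16 other long noncoding RNAs, 13 were tested, and 0 passed in *Fmr1* KD or *Zfp598* KD in edgeR (3 and 5 at an unadjusted p under 0.05, 1 and 1 in DESeq2). With *Zfp598* siRNA B, where 26.8% of all genes passed, 4 were higher and 1 was lower. The former included *Tug1* (1.03, adjusted p = 6.17e-07, edgeR) and *Norad* (0.40, adjusted p = 0.0229, edgeR), and the latter was *Ftx* (-0.64, adjusted p = 0.00235, edgeR). Between the Scramble siRNAs, where 22.7% of all genes differed, 3 of the 13 were higher with siRNA B and 1 was lower. *Tug1* was also higher with both *Fmr1* siRNAs, at 0.64 (adjusted p = 0.000118, edgeR) for A and 0.44 (adjusted p = 0.00385, edgeR) for B, where 23.6% and 22.7% of all genes passed.

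*Lars2* is on the plus strand of chromosome 9, chr9:123195952-123291731, with 17698 exon bases, and none of them lies in an exon of another counted gene. It was the one protein-coding member and the least counted of those tested, and its highest values came from single libraries. Scramble KD had 500, 734 and 708 counts with siRNA A and 887, 551 and 746 with siRNA B. *Fmr1* KD had 844, 2101 and 1052 with siRNA A and 750, 1039 and 595 with siRNA B. *Zfp598* KD had 4032, 353 and 208 with siRNA A and 564, 596 and 505 with siRNA B. The counts in *Zfp598* KD A1 and *Fmr1* KD A2 stood above the rest, and *Zfp598* KD A2 and A3 were the lowest, so that the 3 libraries of *Zfp598* siRNA A held both ends. The share in *Zfp598* KD A1 was 0.0302% (95% Wilson interval 0.0293% to 0.0311%), against 0.00271% to 0.0151% in the other libraries.

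Pooled, the log2 fold change of *Lars2* was 0.61 (SE 0.44, adjusted p = 0.456, edgeR) in *Fmr1* KD and 0.83 (SE 0.44, adjusted p = 0.335, edgeR) in *Zfp598* KD. Without *Zfp598* KD A1 the latter was -0.21 (adjusted p = 0.631, edgeR). With *Zfp598* siRNA A it was 1.43 (SE 0.52, adjusted p = 0.0781, edgeR), and without that library -0.36 (adjusted p = 0.354, edgeR), whereas it passed without *Zfp598* KD A2 (1.86, adjusted p = 0.0261, edgeR) or A3 (1.84, adjusted p = 0.0163, edgeR). With *Fmr1* siRNA A it was 0.96 (adjusted p = 0.201, edgeR), which passed without *Zfp598* KD A1 (0.95, adjusted p = 0.00186, edgeR). The call between the *Zfp598* siRNAs (-1.54, SE 0.52, adjusted p = 0.0275, edgeR) turned to 0.25 (adjusted p = 0.482, edgeR) without it, and did not pass without *Zfp598* KD B1, B2 or B3 (adjusted p = 0.0666 to 0.0854, edgeR). By share, the exact permutation test gave an unadjusted p = 0.0390 for *Fmr1* KD and p = 0.937 for *Zfp598* KD. The former did not hold without any 1 of *Fmr1* KD A1, A2, A3 and B2 or Scramble KD A1, A3, B2 and B3 (p = 0.0563 to 0.0779, exact permutation test).

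Of the 17 mitochondrial aminoacyl-tRNA synthetases, *Lars2* included, 0 passed in *Fmr1* KD or *Zfp598* KD in edgeR (4 and 5 at an unadjusted p under 0.05, 0 and 1 in DESeq2), with median log2 fold changes of 0.13 and 0.09. Between the *Zfp598* siRNAs 2 were higher with siRNA B and 6 were lower, where 35.3% of all genes differed, and without *Zfp598* KD A2 and A3, with A1 as the 1 library of siRNA A, the counts were 2 and 1.

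The features most like *Lars2* across the libraries led away from mitochondria. The first was *Gm55094* (r = 0.870), annotated as a miRNA of 57 bases, and its counts were 623 in *Zfp598* KD A1, 238 in *Fmr1* KD A2, 93 in *Fmr1* KD A3 and 8 to 64 in the other 15. The next were *1600012H06Rik* (0.702) and *Scamp1* (0.700), and the 9th of 12109 was *Rn18s-rs5* (0.660), a copy of 18S rRNA on the plus strand of chromosome 17, chr17:40157244-40159092. *Rn18s-rs5* held 0.720% of the counts in *Zfp598* KD A1, 0.279% in *Fmr1* KD A2, 0.187% in *Fmr1* KD A3, 0.171% in *Zfp598* KD A2, 0.223% in *Zfp598* KD A3 and 0.0765% to 0.136% in the rest. Over all 18 libraries the shares of *Lars2* and *Rn18s-rs5* gave r = 0.66 and rho = 0.14. Without *Zfp598* KD A1 and *Fmr1* KD A2 they gave r = -0.36 and rho = -0.23, so the likeness rests on those libraries.

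**Figure D5:**
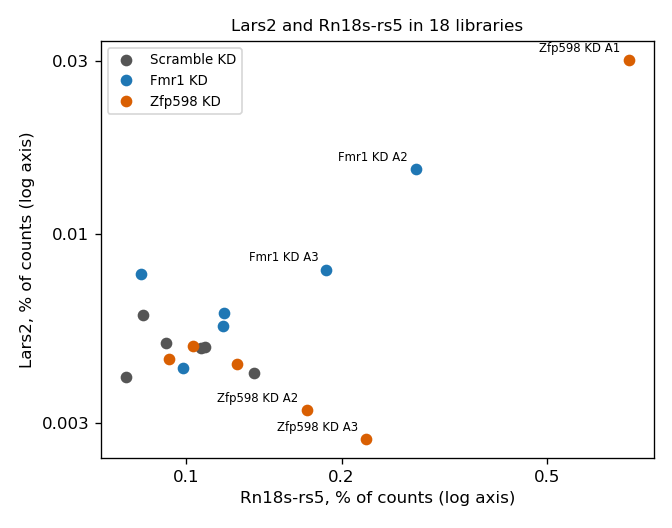
Each point is a library, with the share of counts (%) on the 18S rRNA copy *Rn18s-rs5* and on *Lars2*, both on log axes. *Zfp598* KD A1 (0.720% and 0.0302%) and *Fmr1* KD A2 (0.279% and 0.0151%) are high in both, while *Zfp598* KD A2 and A3 are above most libraries in *Rn18s-rs5* and lowest in *Lars2*.

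The RNA had been depleted of rRNA, and features annotated as rRNA did not all move one way. *Rn18s-rs5* was higher with *Zfp598* siRNA A than with Scramble siRNA A (1.82, SE 0.34, adjusted p = 0.00162, edgeR), and still so without *Zfp598* KD A1 (1.12, adjusted p = 0.00166, edgeR). *Gm55381*, also annotated as rRNA, was lower with *Zfp598* siRNA A than with Scramble siRNA A over all 18 libraries (-1.63, adjusted p = 0.0255, edgeR). It is a low-count feature, with 7, 3 and 3 counts in *Zfp598* KD A1 to A3 and 11, 27 and 21 in Scramble KD A1 to A3. With siRNA B, *Rn18s-rs5* was lower than with siRNA A, in *Fmr1* KD (-1.01, adjusted p = 0.0332, edgeR) and in *Zfp598* KD (-1.98, adjusted p = 0.000201, edgeR), as were the mitochondrial rRNAs *mt-Rnr1* (-1.62 and -1.16, adjusted p = 0.00113 and 0.0112, edgeR) and *mt-Rnr2* (-0.74 and -1.07, adjusted p = 0.0357 and 0.00274, edgeR). These were 3 of 15 tested features in each KD, where 24.3% and 35.3% of all genes differed. In *Zfp598* KD, *mt-Rnr2* was at 985, 2126 and 2932 TMM-normalized CPM in A1, A2 and A3. With *Zfp598* siRNA B it was at 858, 891 and 1117 CPM, a range that holds A1. For *mt-Rnr1* the values were 27.3, 28.4 and 65.5 CPM with siRNA A and 11.9, 21.8 and 18.9 CPM with siRNA B. Of all 15 tested features annotated as rRNA, the others being *Gm56120*, *Gm56439*, *Gm56484*, *Gm55381*, *Gm55090*, *Gm55570*, *Gm56023*, *Gm54938*, *Gm54963*, *Gm56346*, *Gm54966* and *Gm55925*, 1 was higher in *Fmr1* KD, where 6.54% of all genes passed. It was *Gm56484* (1.00, adjusted p = 0.0476, edgeR), a low-count feature that did not pass in DESeq2 (0 of 15). In *Zfp598* KD, where 1.96% of all genes passed, 0 of 15 did in edgeR (2 at an unadjusted p under 0.05, 0 in DESeq2). Of 18 genes for RNA polymerase I and rRNA processing, *Polr1a* (0.53, adjusted p = 0.0298, edgeR) and *Taf1c* (0.61, adjusted p = 0.00761, edgeR) were higher in *Fmr1* KD, where 6.54% of all genes passed, and 0 passed in *Zfp598* KD in edgeR (2 at an unadjusted p under 0.05, 1 in DESeq2). Against Scramble, 10 were higher and 2 lower for *Fmr1* siRNA A (median log2 fold change 0.38), where 23.6% of all genes passed. For *Fmr1* siRNA B, 1 was higher and 5 lower (median -0.066), where 22.7% passed. The controls differed in this list too, with 7 higher and 0 lower for Scramble siRNA B against siRNA A (median 0.21), where 22.7% of all genes differed. The part of rRNA depletion in the values of *Lars2* was not tested.

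Pairs of members were compared across the 18 libraries, which fall in 6 siRNA groups. *Rmrp* and *Rpph1* had too few counts for a pair. Of the 10 pairs among the 5 members with enough counts, the 6 that leave out ENSMUSG00000118642 were tested on log2 shares, and 0 passed (1 at an unadjusted p under 0.05). The pair under 0.05 was *Malat1* and *Neat1*, with r = 0.55 (permutation p = 0.0185, adjusted p = 0.1004) and rho = 0.43 (permutation p = 0.0766, adjusted p = 0.255) over 18 libraries. That adjustment ran over all 10 pairs, so p-values of the 4 pairs with ENSMUSG00000118642, which are not given, entered it. Adjusted over the 6 tested pairs alone, the permutation p was 0.111 for r and 0.431 for rho. Without the 2 libraries farthest from the median of *Malat1*, r was 0.37, and within conditions it was -0.15 for Scramble KD, -0.75 for *Fmr1* KD and 0.51 for *Zfp598* KD (n = 6 each). ENSMUSG00000118642 gave r = -0.47 with *Malat1*, -0.23 with *Neat1* and -0.48 with *Lars2*, described without a test, where the feature is itself part of the total. Without *Zfp598* KD A2 and A3 these were 0.02, -0.18 and -0.25, and with the feature taken out of the total they were -0.17, -0.077 and -0.39. After each siRNA group was centred on its mean, 2 pairs passed, *Rn7sk* and *Lars2* (r = -0.61, permutation, adjusted p = 0.0196) and *Malat1* and *Lars2* (r = 0.67, permutation, adjusted p = 0.0238). The r of *Rn7sk* and *Malat1* turned to -0.51 (permutation, adjusted p = 0.0517). These permutations moved values freely over the 18 libraries. Centring ties the values of a siRNA to each other, so these p-values can be too small. Both passing pairs hold *Lars2*, whose highest and lowest counts came from libraries of *Zfp598* siRNA A.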

How the data were processed

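RNA-seq of 18 N2A libraries was analysed, 3 for each of 6 siRNAs. Per the authors, reads went through TrimGalore, then STAR (GRCm39), then featureCounts on exons, and the deposited values are whole-number counts per gene for 55414 features, neither normalized nor pooled. The annotation release, strand setting and treatment of reads with several alignments are not given in the sources used here. Names and positions came from GENCODE M39 (54749 features, 98.8%), and sequences from GRCm39.

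Counts were tested with R 4.3.3 and edgeR 4.0.16 (TMM, filterByExpr with minimum count 10 and minimum total 15, glmQLFit, glmQLFTest, Benjamini-Hochberg adjustment over 17901 genes, passing under 0.05) in a condition model of 18 libraries and a model with 1 group per siRNA. DESeq2 1.42.0 was an alternative. Shares of total counts were compared by exact permutation (924 splits, p not adjusted over the 8 tests). Correlations were tested by 100000 permutations (SciPy 1.17.1), and *Rn7sk* copies were found with BLASTN 2.17.0. Of 200 genes changed in simulated counts for the *Fmr1* KD comparison (17655 genes), edgeR recovered 185 with 11 other calls. No pair of libraries of one siRNA agreed within sampling noise (chi-square per degree of freedom at least 2.78). The members and gene lists were chosen with earlier results of these data known. Named genes are the members, the 10 most counted features, rRNA features, the features most like a member across libraries (5 at each end for ENSMUSG00000118642, the 3 highest otherwise), and list genes with the largest changes in pooled comparisons; list genes named for single siRNAs and features inside *Malat1* and *Neat1* were chosen after their values were seen. Some genes of the lists are not reported here.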

Additional observations from a re-analysis of the deposited data

Results flagged for a closer look

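In 4 groups, 1 library lay far from the other 5 of its condition by Dixon's test, out of 18 groups examined, and chance alone gives about 1 in 20. *Rn7sk* took 0.350% of the counts in *Fmr1* KD A3, where the nearest library was at 0.195%. *Lars2* took 0.0151% in *Fmr1* KD A2, nearest 0.00796%, and 0.0302% in *Zfp598* KD A1, nearest 0.00491%. The 18S rRNA copy *Rn18s-rs5* took 0.720% in *Zfp598* KD A1, nearest 0.223%.

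For 3 effects, the siRNAs to the same target differed by an interaction term in edgeR. For *Neat1*, the effect of siRNA B minus that of siRNA A was -0.52 (log2) in *Fmr1* KD (adjusted p = 0.0167) and -1.61 in *Zfp598* KD (adjusted p = 4.06e-07). For *Malat1* it was -0.36 in *Zfp598* KD (adjusted p = 0.0475). The Scramble siRNAs that these effects are measured against also differed in *Neat1*, by 0.64.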

How the results depend on the processing

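Among the counts of members that passed, 236 values under an alternative stayed within 1.5 times and 33 moved. In *Zfp598* KD, 1 member passed with library totals, in DESeq2 or with the siRNA letter as a term and 2 without *Zfp598* KD A2 and A3, against 0. With *Fmr1* siRNA A 2 passed, and with *Zfp598* siRNA A 1, when low counts were not filtered or A2 and A3 were left out, against 1 and 0. Leaving out A2 and A3 leaves *Zfp598* siRNA A with A1 alone, so the call with that siRNA (*Lars2*, 2.66, adjusted p = 3.53e-06, edgeR) rests on 1 library, assumed to vary like the other groups. With library totals, 0 passed with *Fmr1* siRNA B (against 1), 0 differed between the *Fmr1* siRNAs (against 1) and 2 between the *Zfp598* siRNAs (against 4). Between the *Fmr1* siRNAs 3 differed without the filter or without A2 and A3, and between the Scramble siRNAs 1 in DESeq2. After each siRNA group was centred on its mean, 2 pairs passed (*Rn7sk* and *Malat1*, each with *Lars2*), against 0, by permutations whose p-values can be too small there. The r turned to -0.51 for *Rn7sk* and *Malat1* and -0.088 for *Rn7sk* and *Neat1*. The causes were not tested.

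Directions near 0 turned. *Rn7sk* came to 0.014 with *Fmr1* siRNA A and -0.20 with *Zfp598* siRNA A under library totals, -0.77 with *Zfp598* siRNA A without A2 and A3, and -0.0012 in *Fmr1* KD without the filter. *Neat1* with *Fmr1* siRNA B came to 0.072 under library totals and 0.00047 with ENSMUSG00000118642 removed first.

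When single libraries were left out in turn, 0 to 1 members passed in *Zfp598* KD, 1 to 2 with *Fmr1* siRNA A, 0 to 1 with *Zfp598* siRNA A, 1 to 2 between the Scramble siRNAs, 0 to 3 between the *Fmr1* siRNAs, 0 to 1 pairs, and 2 to 4 share tests. *Rn7sk* ranged from -0.26 to 0.11 in *Fmr1* KD, -0.38 to 0.076 in *Zfp598* KD, -0.51 to 0.14 with *Fmr1* siRNA A, -0.068 to 0.36 with *Fmr1* siRNA B, -0.35 to 0.31 with *Zfp598* siRNA A, and -0.11 to 0.20 as a log2 share in *Fmr1* KD. *Neat1* with *Fmr1* siRNA B ranged from -0.034 to 0.035. *Lars2* ranged from -0.21 to 0.98 in *Zfp598* KD, -0.089 to 0.34 with *Fmr1* siRNA B, -0.36 to 1.86 with *Zfp598* siRNA A, -0.26 to 0.016 with *Zfp598* siRNA B, -0.12 to 0.15 between the Scramble siRNAs, -1.96 to 0.25 between the *Zfp598* siRNAs, and -0.30 to 0.39 as a log2 share in *Zfp598* KD.

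Replicate numbers did not pair the libraries (correlations of same-numbered libraries from -0.40 to 0.34). With the replicate block, 2 members differed between the *Fmr1* siRNAs, *Rn7sk* turned to -0.011 in *Fmr1* KD and -0.059 with *Zfp598* siRNA A, *Lars2* between the *Zfp598* siRNAs no longer passed (-1.36, adjusted p = 0.0508, edgeR), and no other member's call changed. Over all genes, calls in *Fmr1* KD and *Zfp598* KD were 1775 and 947 in DESeq2, 1808 and 789 with the siRNA letter as a term, and 1855 and 1273 without A2 and A3, against 1170 and 351. With A1 as the 1 library of *Zfp598* siRNA A, calls with that siRNA were 1072 against 2138, and between the *Zfp598* siRNAs 2982 against 6311. Counts over gene lists without these libraries or without *Zfp598* KD A1, the *Malat1* and *Neat1* siRNA differences under each alternative and the adjustment over 6 pairs were added after seeing the data. *Rmrp* and *Rpph1* had too few counts to compare, and the reason was not tested.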
